A study of Mus musculus with 34 samples.

Results

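Slc2a1 and Slc2a3 encode the facilitative glucose transporters GLUT1 and GLUT3. Both genes were chosen by name, with earlier results of these data known. They were read by their numeric gene identifiers (20525 for Slc2a1, 20527 for Slc2a3) as 2 of the 27179 identifiers counted in each library. Both were among the 11357 genes that passed the filter on low counts. RNA was counted in 34 libraries of naive CD4 T cells from C57BL/6 mice that had been activated for 3.5 days with plate-bound antibodies against CD3 and CD28 and were then flow-sorted. Each library label joins a culture code to a number. The groups were TfhA_4e4 (5 libraries), Tfh5_4e4 (6), Tfh2_1e4 (6), Tfh2_2e4 (5), Tfh2_4e4 (6) and Tfh2_6e4 (6), and strain, activation and time in culture were the same in all of them. The series title names TGF-β, the choice between the TFH and TH17 fates and the factor c-Maf. Neither the meaning of the codes, nor what the number counts, nor the sort gate is explained in the labels, so no group can be tied to an agent, a dose or a seeding density.

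Glucose cannot cross the plasma membrane unaided, and the proteins of the SLC2 family carry it down its concentration gradient. GLUT1 is the transporter best known from activated T cells, where CD28 signalling through Akt brings it to the surface. GLUT3 has a higher affinity for glucose, is known above all from neurons, and is also made by lymphocytes. Both genes are known targets of hypoxia-inducible factor 1 (HIF-1), and once inside the cell glucose is held there by hexokinases, which phosphorylate it for glycolysis.

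The libraries held 4481509 to 9934245 counts, of which 39.2 to 53.8% per library fell on 2 identifiers without a symbol. Levels are given in CPM, that is, counts rescaled so that all libraries have the same normalized total. The libraries read the 3′ ends of transcripts, so a count does not scale with the length of its gene. Markers of CD4 T cells summed to between 1623 and 1704 CPM per library in TfhA_4e4 and to between 1759 and 2426 CPM in the other 5 groups. The 2 CD8 T cell markers summed to 3.85 to 15.5 CPM, and summed markers of B cells, myeloid cells, NK cells and erythroid cells reached at most 1.52, 1.72, 3.59 and 2.82 CPM. The labels do not tell whether replicates were separate animals or cultures, and every p-value below therefore reflects only the spread between these libraries, which may be technical.

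Slc2a3 lies on the minus strand of chromosome 6 at chr6:122727809-122802363 (GRCm38.p6, RefSeq), and its 3′ end is at the same base in RefSeq and GENCODE M21. Slc2a1 lies on the plus strand of chromosome 4 at chr4:119108745-119137330. Its longest GENCODE transcript ends at base 119137983, which is 653 bases beyond the RefSeq end, and the antisense gene Gm12868 (119133749 to 119138801) covers both ends. Which gene model and strand setting were used for counting is not given in the sources used here. Reads placed at the GENCODE end would fall outside the RefSeq model, and the part of this in the low Slc2a1 counts was not tested. A pseudogene, Gm4482 (122792584 to 122793325), lies inside the Slc2a3 locus, far from its 3′ end, and is not listed in the count files.

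Nearly all counts of the pair fell on Slc2a3, and Slc2a1 was near the limit of detection in all groups. Over all 34 libraries 43145 counts fell on Slc2a3 and 239 on Slc2a1. That is 180.5 Slc2a3 counts for each Slc2a1 count. Every library had at least 79 Slc2a3 counts, whereas 9 of 34 libraries had 10 or more Slc2a1 counts and 3 had none. By mean CPM, Slc2a3 was at rank 138 of 11357 genes from the top in Tfh2_6e4 and Slc2a1 at rank 9856.

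Slc2a3 went up at every step of the Tfh2 number. In Tfh2_1e4 it ran at 8.60 (lowest), 11.5 (median) and 12.4 CPM (highest). The 5 Tfh2_2e4 libraries had 36.7, 65.2, 64.4, 90.8 and 56.6 CPM. In Tfh2_4e4 the lowest, median and highest values were 198.3, 279.1 and 333 CPM, and in Tfh2_6e4 they were 375, 419.9 and 445 CPM. No library of one number reached the range of the next, and the group means were 10.8 ± 1.69, 62.8 ± 19.4, 270.1 ± 55.6 and 416 ± 28.9 CPM (SD, n = 6, 5, 6 and 6). In rank by mean CPM among the genes tested, Slc2a3 stood at 6037 in Tfh2_1e4, 1598 in Tfh2_2e4, 231 in Tfh2_4e4 and 138 in Tfh2_6e4. In such bulk samples, a larger share of cells that make the transcript and more transcript per cell cannot be told apart.

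**Figure D1:**
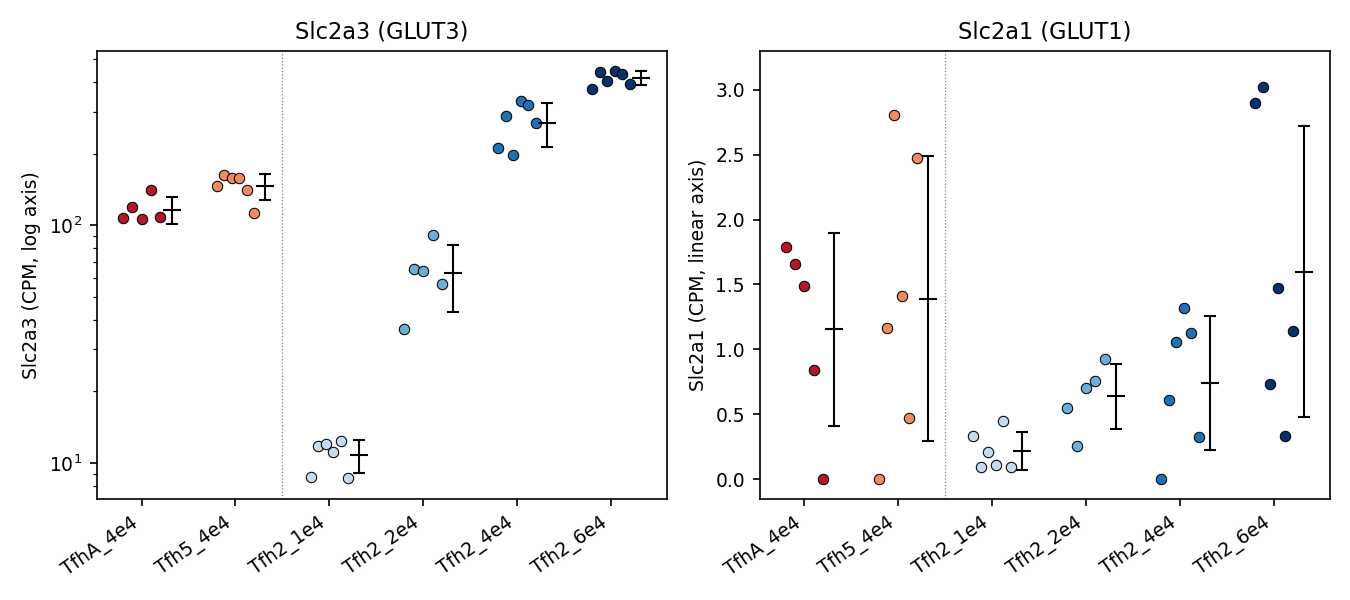
Levels of Slc2a3 (left, CPM on a log axis) and Slc2a1 (right, CPM on a linear axis) in each of the 34 libraries, by group, with the group mean and SD as a bar beside the points and a dotted line between the other codes and the Tfh2 series. Slc2a3 separates the 4 Tfh2 numbers completely, with means of 10.8, 62.8, 270.1 and 416 CPM, whereas Slc2a1 stays at or under 3.02 CPM in every library and its groups overlap.

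Each step passed the edgeR quasi-likelihood test at 0.05 after Benjamini-Hochberg adjustment over the 11357 genes tested. Tfh2_2e4 against Tfh2_1e4 gave a log2 fold change of 2.54 (SE 0.156, edgeR adjusted p = 4.36e-16) in a comparison in which 5.26% of all genes were called. Tfh2_4e4 against Tfh2_2e4 gave 2.11 (SE 0.150, edgeR adjusted p = 8.05e-14), with 13.0% of all genes called. In both of these steps Slc2a3 had the smallest p of all genes. Tfh2_6e4 against Tfh2_4e4 gave 0.62 (SE 0.133, edgeR adjusted p = 0.00775), with 1.48% of all genes called. The first and second steps each multiply the label number by 2, and the last multiplies it by 1.5. Per doubling of the number the log2 changes were 2.54 (SE 0.156), 2.11 (SE 0.150) and 1.07 (SE 0.227), and the differences between these rates were not tested. Neighbouring steps share the libraries of the number between them.

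Across the whole range, Tfh2_6e4 was 38.6 times as high as Tfh2_1e4 for Slc2a3 (log2 fold change 5.27, SE 0.164, edgeR adjusted p = 5.07e-28), where 43.0% of all genes were called. The slope on log2 of the number was called for 46.9% of all genes, 24.1% higher and 22.8% lower, so a slope as such was common in these libraries. Slc2a3 had the smallest p of all 11357 genes for that slope (edgeR adjusted p = 3.45e-29). Since the pair was chosen with earlier results known, this rank and those of the steps above are description only.

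At the number 4e4, Slc2a3 was lower in both other codes than in Tfh2. The 5 TfhA_4e4 libraries had 107, 118.9, 105.8, 141.4 and 108.6 CPM, against a lowest, median and highest value of 198.3, 279.1 and 333 CPM in Tfh2_4e4. The Tfh5_4e4 libraries ran at 112.5, 152 and 162 CPM by the same 3 measures. All 11 TfhA_4e4 and Tfh5_4e4 libraries lay below all 6 Tfh2_4e4 libraries, which both comparisons share. TfhA_4e4 averaged 116 ± 14.9 CPM and Tfh2_4e4 270.1 ± 55.6 CPM, which is 0.431 times as high by the fitted fold change (95% interval of the log2 fold change -1.50 to -0.92, edgeR adjusted p = 3.12e-09). In that comparison 15.5% of all genes were called higher, 17.4% lower and 32.8% in either direction. Tfh5_4e4 averaged 146 ± 18.6 CPM, 0.543 times as high as Tfh2_4e4 (95% interval of the log2 fold change -1.15 to -0.61, edgeR adjusted p = 3.34e-05). Here 1.41% of all genes were called higher, 1.70% lower and 3.11% in either direction.

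Other measures moved together with the TfhA code. Mitochondrial rRNA took 14.8 ± 2.19% of the counts left after the 2 identifiers with the most counts were set aside in TfhA_4e4 (SD, n = 5), against 9.92 ± 0.989% in Tfh2_4e4 (n = 6). The summed CD4 T cell markers were 1623 to 1704 CPM in TfhA_4e4 and 2062 to 2370 CPM in Tfh2_4e4, and library totals were 4481509 to 8207111 in TfhA_4e4 and 6548499 to 9934245 in Tfh2_4e4. The part of the markers and totals in the result was not tested. With the mitochondrial rRNA share as a covariate, the Slc2a3 log2 fold change of TfhA_4e4 against Tfh2_4e4 was -1.19 (edgeR adjusted p = 5.43e-05). This share was 12.6 to 17.3% in TfhA_4e4 and 8.06 to 11.1% in Tfh2_4e4, and no library outside TfhA_4e4 exceeded 11.5%. Since the ranges do not overlap, fits with this covariate cannot tell the share and the TfhA code apart. The same holds for every TfhA_4e4 comparison with this covariate below.

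Between TfhA_4e4 and Tfh5_4e4 the Slc2a3 ranges overlapped, and the test did not separate them in a comparison in which 39.5% of all genes were called. The log2 fold change was -0.33 (95% interval -0.62 to -0.04, edgeR adjusted p = 0.0598). Without Tfh5_4e4 replicate 6, the lowest library of its group, it was -0.40 (edgeR adjusted p = 0.0278). Without TfhA_4e4 replicate 5, the highest of its group, it was -0.42 (edgeR adjusted p = 0.0233). Both libraries run against the difference, so leaving either out favours it and lends it no support. These were the 2 of 11 fits without 1 library in which it passed. Several other settings also took this value past the threshold.

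Ordered by mean level, Slc2a3 ran from Tfh2_1e4 through Tfh2_2e4, TfhA_4e4, Tfh5_4e4 and Tfh2_4e4 to Tfh2_6e4. Both other codes at 4e4 thus lay between the Tfh2 cultures labelled 2e4 and 4e4. TfhA_4e4 was 1.85 times as high as Tfh2_2e4 by the means, 116 against 62.8 CPM, with no overlap of libraries (log2 fold change 0.90, SE 0.151, edgeR adjusted p = 6.11e-06, 31.3% of all genes called). Of the 5 pairs of neighbours in this order, TfhA_4e4 and Tfh5_4e4 formed the single pair that did not pass.

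**Figure D2:**
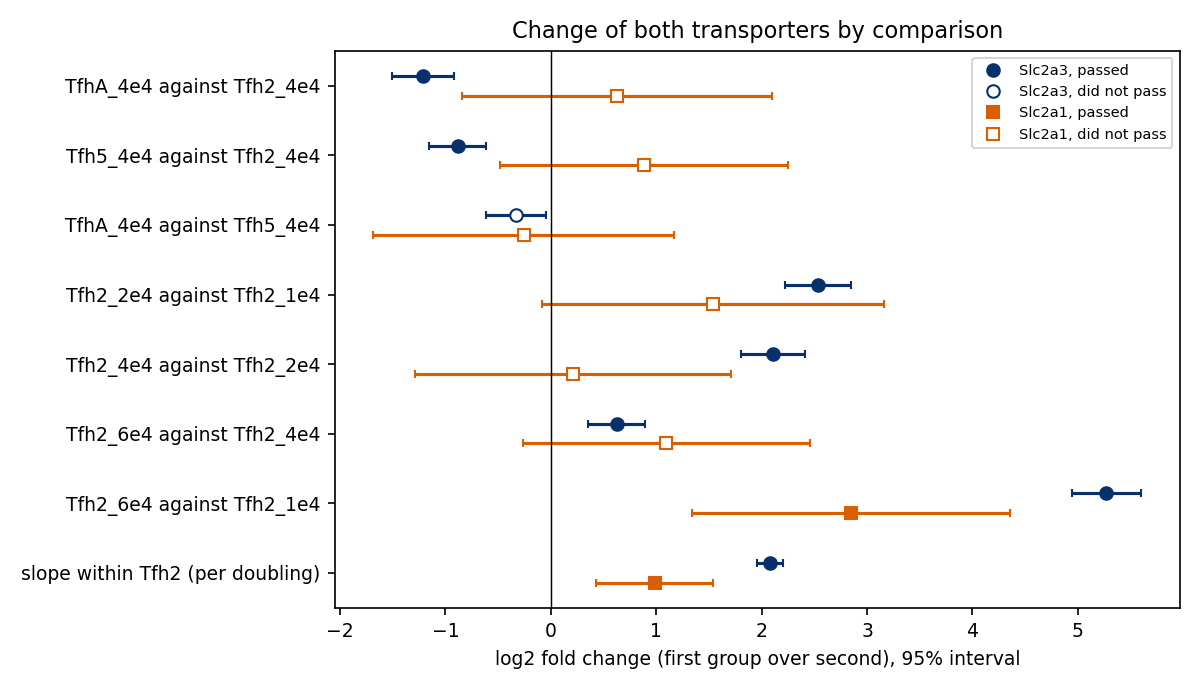
Fitted log2 fold changes of Slc2a3 (circles) and Slc2a1 (squares) in 8 comparisons, first group over second, with 95% intervals; the slope is the log2 change per doubling of the Tfh2 number, and filled symbols passed the edgeR test at 0.05. Slc2a3 passed in all but TfhA_4e4 against Tfh5_4e4, and Slc2a1 passed for the slope and for Tfh2_6e4 against Tfh2_1e4, with much wider intervals.

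In the fit of all 34 libraries, Slc2a1 also went up over the Tfh2 series, from a level of a few counts per library. It reached the 1.30 CPM cutoff of the low-count filter in 10 of 34 libraries, none of them in Tfh2_1e4 or Tfh2_2e4. The filter did not keep it in a fit of the Tfh2 libraries alone. Its calls below therefore rest on the fit with all groups, where other codes helped it pass the filter. Counts per library were 1 to 4 in Tfh2_1e4 and 2 to 10 in Tfh2_2e4. At the higher numbers they were 0 to 10 (Tfh2_4e4) and 2 to 25 (Tfh2_6e4). The group means were 0.214 ± 0.146, 0.639 ± 0.253, 0.741 ± 0.514 and 1.60 ± 1.12 CPM (SD, n = 6, 5, 6 and 6). The ranges of all neighbouring numbers overlapped, and so did those of Tfh2_6e4 (0.335 to 3.02 CPM) and Tfh2_1e4 (0.0915 to 0.446 CPM). The log2 fold change of Tfh2_6e4 against Tfh2_1e4 was 2.84 (SE 0.749, edgeR adjusted p = 0.00174), where 22.3% of all genes were called higher. The slope was 0.99 per doubling (SE 0.274, edgeR adjusted p = 0.00261). No single step passed. Tfh2_2e4 against Tfh2_1e4 gave 1.54 (edgeR adjusted p = 0.356), Tfh2_4e4 against Tfh2_2e4 gave 0.21 (0.906) and Tfh2_6e4 against Tfh2_4e4 gave 1.10 (0.545). The sum for Tfh2_1e4 is 12 counts over 6 libraries, which limits every fold drawn against it.

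No difference between the codes was detectable for Slc2a1 at this depth. The TfhA_4e4 libraries had 9, 8, 9, 7 and 0 counts (1.79, 1.66, 1.49, 0.839 and 0 CPM). The Tfh5_4e4 libraries had 0 to 23 counts with a median of 11.5, and the Tfh2_4e4 libraries 0 to 10 with a median of 6. Each of the 3 groups thus held 1 library without a count, and all 3 overlapped. A count of 0 allows up to 3 counts, which is 0.705 CPM in TfhA_4e4 replicate 6, 0.421 CPM in Tfh5_4e4 replicate 1 and 0.519 CPM in Tfh2_4e4 replicate 1. The log2 fold change was 0.63 for TfhA_4e4 against Tfh2_4e4 (95% interval -0.84 to 2.10, edgeR adjusted p = 0.552). With the mitochondrial rRNA share as a covariate it was 1.58 (edgeR adjusted p = 0.306), and without Tfh2_4e4 replicate 1, a library at 0, it was 0.40 (0.722). For Tfh5_4e4 against Tfh2_4e4 it was 0.88 (95% interval -0.48 to 2.25, edgeR adjusted p = 0.607), and for TfhA_4e4 against Tfh5_4e4 it was -0.26 (95% interval -1.68 to 1.17, edgeR adjusted p = 0.807). In the order of mean levels, Slc2a1 ran from Tfh2_1e4 through Tfh2_2e4, Tfh2_4e4, TfhA_4e4 and Tfh5_4e4 to Tfh2_6e4, and none of the 5 pairs of neighbours passed the test. The pair at the top, Tfh5_4e4 and Tfh2_6e4, had a log2 fold change of -0.21 (edgeR adjusted p = 0.901, 10.6% of all genes called).

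The balance of counts between the 2 genes was then read within each library. It is given as the share of Slc2a1 in the counts of both genes, which needs no normalization between libraries. This is a share of RNA counts, and transporter protein was not measured. Slc2a1 made up 12 of 634 counts in Tfh2_1e4, or 1.89% (exact 95% binomial interval 0.982 to 3.28%). It made up 1.06% in Tfh2_2e4 (25 of 2349, 0.690 to 1.57%), 0.277% in Tfh2_4e4 (34 of 12276, 0.192 to 0.387%) and 0.402% in Tfh2_6e4 (72 of 17896, 0.315 to 0.506%). The intervals hold counting error alone, as reads without molecular identifiers are not independent molecules. With counts divided by the length of the first-numbered GENCODE transcript of each gene (3260 bases for Slc2a1, 3959 for Slc2a3), the same 4 shares were 2.29, 1.29, 0.336 and 0.488%, and those of TfhA_4e4 and Tfh5_4e4 were 1.17 and 1.12%. The lengths are close, so this scale could move the shares only little. As 3′ counts do not scale with length, it is no check on the shares. Fewer counts fell on Slc2a1 than on Slc2a3 in every group, and whether reads beyond the Slc2a1 gene model are missing from them was not tested.

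The mean share of Slc2a1 per library fell with the Tfh2 number, by 0.652 percentage points per doubling over 23 libraries (permutation test with 100000 resamples, two-sided, p = 2e-05, 0.00016 after Benjamini-Hochberg adjustment over the 8 share comparisons). Tfh2_6e4 libraries had shares of 0.0772 to 0.766% and Tfh2_1e4 libraries of 0.826 to 3.66%, so these groups did not overlap. Their means of 0.386 and 1.95% differed in an exact permutation test (two-sided p = 0.00216, the smallest this design allows, adjusted p = 0.00866). Without Tfh2_6e4 replicate 5 the adjusted p was 0.0519. Of the single steps, that of Tfh2_4e4 against Tfh2_2e4 passed, with mean shares of 0.268 and 1.08% (exact permutation p = 0.00649, adjusted p = 0.0173). When any of Tfh2_4e4 replicates 1, 2, 5 or 6 was left out, that adjusted p was 0.0635. The step of Tfh2_2e4 against Tfh2_1e4 (1.08 and 1.95%, exact permutation adjusted p = 0.312) and that of Tfh2_6e4 against Tfh2_4e4 (0.386 and 0.268%, adjusted p = 0.463) did not pass. The falling share shows that the counts of the 2 genes changed unequally over the series. That Slc2a1 itself went up rests on the fit with all groups, where other codes helped it pass the filter.

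**Figure D3:**
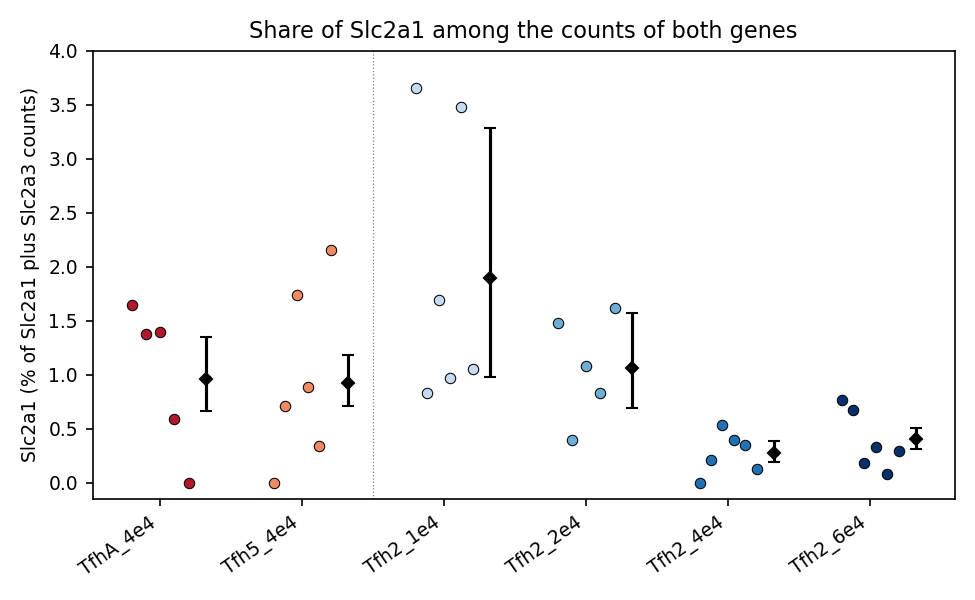
Share of Slc2a1 among the counts of Slc2a1 and Slc2a3 (percent) in each library, by group, with the share of the summed counts and its exact 95% binomial interval as a black diamond beside the points. Within Tfh2 the pooled share is 1.89, 1.06, 0.277 and 0.402% from 1e4 to 6e4, and it is 0.964% in TfhA_4e4 and 0.926% in Tfh5_4e4.

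At 4e4 the pooled share of Slc2a1 was 0.964% in TfhA_4e4 (33 of 3425 counts, exact 95% binomial interval 0.664 to 1.35%) and 0.926% in Tfh5_4e4 (63 of 6804, 0.712 to 1.18%), against 0.277% in Tfh2_4e4. The TfhA_4e4 libraries had 1.65, 1.37, 1.39, 0.590 and 0%, and the Tfh5_4e4 and Tfh2_4e4 libraries had 0 to 2.15% and 0 to 0.529%. For the 3 libraries at 0, a count of 0 allows a share of up to 0.649% in TfhA_4e4, 0.287% in Tfh5_4e4 and 0.245% in Tfh2_4e4. The counting intervals of the pooled shares lay apart, but the libraries overlapped. TfhA_4e4 against Tfh2_4e4 differed by 0.732 points in mean share (exact permutation p = 0.0433, adjusted p = 0.0866). Tfh5_4e4 against Tfh2_4e4 differed by 0.703 points (exact permutation p = 0.0671, adjusted p = 0.107). Neither passed after adjustment. When libraries were left out singly, 1 of 11 tests passed for TfhA_4e4 and 1 of 12 for Tfh5_4e4. These were the tests without TfhA_4e4 replicate 6 (exact permutation adjusted p = 0.0127) and without Tfh5_4e4 replicate 1 (0.0173). Both libraries had no Slc2a1 count, which runs against the difference, so leaving them out favours it and lends it no support. Between TfhA_4e4 and Tfh5_4e4 the mean shares differed by 0.0288 points (exact permutation p = 0.963).

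The genes whose log2 CPM followed Slc2a3 most closely over the 34 libraries, among 6734 genes whose mean log2 CPM was 3 or more, were Eif4ebp1 (Pearson r = 0.985), Ier3 (0.983), Sdc4 (0.982), Mt2 (0.981), Mt1 (0.981) and Ndrg1 (0.979). The coefficients describe points that share 6 groups and carry no test. Eif4ebp1 encodes an inhibitor of cap-dependent translation, Sdc4 a cell-surface proteoglycan, Mt1 and Mt2 metallothioneins, Ier3 an early response protein and Ndrg1 a stress-induced protein. All 6 had their lowest mean in Tfh2_1e4 and their highest in Tfh2_6e4, with TfhA_4e4 and Tfh5_4e4 below Tfh2_4e4. Ndrg1 came closest in range, with group means of 11.4, 66.7, 179.1 and 241.2 CPM along the Tfh2 numbers and a slope of 1.71 per doubling. Slc2a3, with 2.08 per doubling, was steeper than all 6. The coefficient of Slc2a1 with Slc2a3 was 0.468, from the sparse counts of Slc2a1.

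**Figure D4:**
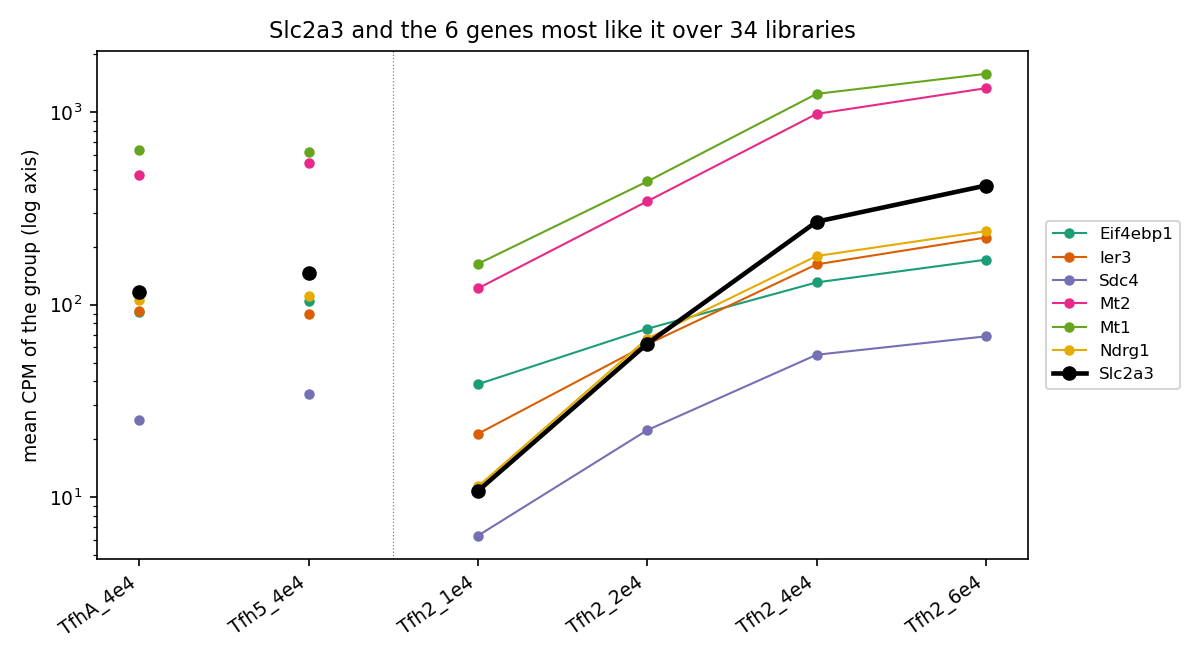
Mean CPM (log axis) of Slc2a3 (thick black) and of the 6 genes most like it over the 34 libraries, by group; lines join the 4 Tfh2 numbers. All 7 genes climb over the Tfh2 numbers and stand lower in TfhA_4e4 and Tfh5_4e4 than in Tfh2_4e4, and Slc2a3 has the steepest course.

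Of the other 10 hexose transporter genes of the SLC2 family that were looked up, 3 passed the low-count filter, and each of them was above Slc2a1 in mean CPM and below Slc2a3 in every group. For the slope 2 were higher and 1 lower, beside 24.1 and 22.8% of all genes, with a median of 0.42 against -0.0028 over all genes. Slc2a8, whose product is held inside cells, had group means of 3.28, 5.24, 10.1 and 10.2 CPM along the Tfh2 numbers (slope 0.68 per doubling, edgeR adjusted p = 2.67e-08). Slc2a9, a urate transporter, had 3.07, 3.34, 4.93 and 6.41 CPM (slope 0.42, edgeR adjusted p = 0.0021).

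Slc2a6, which encodes the intracellular transporter GLUT6, had a slope opposite in sign to that of Slc2a3, though its mean did not fall at the first Tfh2 step. Its means along the Tfh2 numbers were 6.34, 6.58, 3.43 and 2.05 CPM (slope -0.64, edgeR adjusted p = 1.47e-06). The TfhA_4e4 libraries had 6.01 to 10.5 CPM and the Tfh2_4e4 libraries 2.44 to 4.32 CPM, with no overlap (1.28 on the log2 scale, edgeR adjusted p = 0.000531). In Tfh5_4e4 against Tfh2_4e4, where Slc2a3 was lower, none of these 3 tested members passed. The remaining 7 members, among them Slc2a4 (the insulin-regulated GLUT4) with at most 15 counts summed over a group, and both sodium-coupled transporters Slc5a1 and Slc5a2, did not pass the filter.

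All 3 hexokinase genes tested were higher along the Tfh2 slope, as were 24.1% of all genes. Hk1 and Hk2, which had a mean log2 CPM of at least 1, had smaller slopes than Slc2a3. Hk2, the inducible hexokinase, had 75.9, 143.7, 215.6 and 238.9 CPM (slope 0.65, edgeR adjusted p = 5.64e-20) and Hk1 a slope of 0.44. At 4e4, 1 of the 3 was lower in TfhA_4e4 than in Tfh2_4e4, Hk1 (log2 fold change -0.32, edgeR adjusted p = 0.0254), where 17.4% of all genes were lower. With the mitochondrial rRNA share as a covariate Hk1 was at -0.15 (edgeR adjusted p = 0.576), and it also lost its call without TfhA_4e4 replicate 2 (0.0632) or 6 (0.0592). In Tfh5_4e4 against Tfh2_4e4 2 of the 3 were lower, Hk1 at -0.38 (edgeR adjusted p = 0.0332) and Hk2 at -0.36 (0.0199), where 1.70% of all genes were lower. The Hk1 call was lost in 6 of 12 fits that left out 1 library, namely Tfh2_4e4 replicate 2 or 5 or Tfh5_4e4 replicate 1, 2, 5 or 6 (edgeR adjusted p = 0.0526 to 0.0979).

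Of 15 glycolytic enzymes tested after hexokinase, 12 were higher and none lower along the slope, with a median of 0.49, while 24.1% of all genes were higher and 22.8% lower. Aldoc, an aldolase, had the steepest slope among the named ones (1.40 per doubling, edgeR adjusted p = 5.63e-24), followed by Pfkm (0.85), Pfkfb3 (0.66) and Gpi1 (0.64). In TfhA_4e4 against Tfh2_4e4 7 of 15 were lower and none higher, with 17.4% of all genes lower and 15.5% higher, and the median log2 fold change was -0.41 against -0.01 over all genes. Pfkfb3, whose product makes the activator of phosphofructokinase, averaged 24.0 ± 5.05 CPM in TfhA_4e4 and 55.8 ± 5.57 CPM in Tfh2_4e4 (log2 fold change -1.23, edgeR adjusted p = 3.50e-09), and Aldoc averaged 103.1 ± 16.6 and 238.6 ± 18.0 CPM (-1.21, edgeR adjusted p = 1.19e-08). Pfkp (-0.50) and Gpi1 (-0.47) were also lower there, and Pfkp was at -0.27 (edgeR adjusted p = 0.329) with the mitochondrial rRNA covariate. In Tfh5_4e4 against Tfh2_4e4 1 of 15 was lower, Pfkl (-0.37, edgeR adjusted p = 0.0230), where 1.70% of all genes were, and the list median was -0.27 against -0.01 over all genes. Pfkl lost its call with no filter on low counts (edgeR adjusted p = 0.0636) and without Tfh5_4e4 replicate 2 (0.0535) or 3 (0.0667). Gapdh had 109 to 228 counts per group. Near-identical pseudogene copies can take reads of Gapdh, Pgk1 and Eno1, and the part of this in their counts was not tested. All 3 genes belong to the enzyme list used above, so its counts and medians share this uncertainty.

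All 4 lactate and pyruvate carrier genes tested, including the chaperones Bsg and Emb that bring the carriers to the membrane, were higher along the slope (median 0.49), as were 24.1% of all genes. In TfhA_4e4 against Tfh2_4e4 3 of 4 were lower, against 17.4% of all genes, led by Emb (-0.93, edgeR adjusted p = 6.90e-10) and the lactate exporter Slc16a3 (-0.71), with Slc16a1 at -0.37. Slc16a1 was at -0.62 (edgeR adjusted p = 0.00800) with the mitochondrial rRNA covariate and lost its call without TfhA_4e4 replicate 3 (0.0501). In Tfh5_4e4 against Tfh2_4e4 3 of 4 were lower, Slc16a3 (-0.54), Bsg (-0.42) and Slc16a1 (-0.41), against 1.70% of all genes. The count of 3 rests on Slc16a1 (edgeR adjusted p = 0.0425), which lost its call with no filter (0.0544), without Tfh2_4e4 replicate 3 and Tfh2_2e4 replicate 6 together (0.0674), and in 7 of 12 fits that left out 1 library, namely Tfh2_4e4 replicate 3, 4 or 5 or Tfh5_4e4 replicate 1, 3, 4 or 6 (0.0539 to 0.104). Slc16a3 averaged 167.4, 188.3 and 273.1 CPM in TfhA_4e4, Tfh5_4e4 and Tfh2_4e4. The list medians were -0.54 and -0.41 in these comparisons.

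Txnip and Arrdc4 encode arrestin-like proteins that remove glucose transporters from the surface. Both were higher along the Tfh2 slope (0.61 and 0.66 per doubling, edgeR adjusted p = 0.000903 and 0.000974), as were 24.1% of all genes. This is the same direction as that of Slc2a3. Neither passed in TfhA_4e4 or Tfh5_4e4 against Tfh2_4e4. Txnip varied widely, from 18.4 to 142.6 CPM within Tfh2_4e4.

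Of 9 genes of GLUT trafficking 1 was higher and 3 were lower along the slope, with a median of -0.05, while 24.1% of all genes were higher and 22.8% lower, so 4 called of 9 is near the 46.9% of all genes called. Tbc1d4 encodes AS160, the Akt substrate that holds GLUT4 inside muscle and fat cells, and it moved most. Its group means along the Tfh2 numbers were 85.6, 66.3, 32.5 and 19.7 CPM (slope -0.83, edgeR adjusted p = 2.06e-19). It averaged 3.26 ± 0.949 CPM in TfhA_4e4 and 32.5 ± 6.21 CPM in Tfh2_4e4 (log2 fold change -3.33, edgeR adjusted p = 5.21e-20). In Tfh5_4e4 it averaged 56.0 ± 7.66 CPM (log2 fold change 0.78 against Tfh2_4e4, edgeR adjusted p = 8.11e-05). In TfhA_4e4 against Tfh2_4e4 2 of the 9 were higher (Snx27 at 0.39 and Vps29 at 0.31, both of the route that recycles GLUT1 from endosomes) and 1 lower, and 3 of 9 is near the 32.8% of all genes called there. With the mitochondrial rRNA covariate the edgeR adjusted p-values of Snx27 and Vps29 were 0.134 and 0.0684. Vps29 also lost its call with no filter (edgeR adjusted p = 0.0756), with only the compared groups (0.0534) and without Tfh2_4e4 replicate 2 (0.0532), TfhA_4e4 replicate 1 (0.0908) or TfhA_4e4 replicate 3 (0.0870). Tbc1d4 was the single one of the 9 to pass in Tfh5_4e4 against Tfh2_4e4, where 3.11% of all genes were called. Akt1 (-0.26), Tbc1d1 (0.22) and Vps29 (-0.09) had small slopes that passed, that of Vps29 neither with no filter (edgeR adjusted p = 0.0690) nor with the mitochondrial rRNA covariate (0.0878).

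Of 9 genes that control transcription of glucose uptake, 5 were higher and 1 lower along the slope (median 0.25), beside 24.1 and 22.8% of all genes, led by Egln3 (0.65) and Egln1 (0.58), whose products are oxygen sensors that mark HIF-1α for destruction. Vhl, which takes part in that destruction, had a slope of 0.50, and Hif1a one of 0.46 (edgeR adjusted p = 8.79e-12). In TfhA_4e4 against Tfh2_4e4 4 of 9 were lower, Myc (-1.25), Egln1 (-0.81), Hif1a (-0.69) and Egln3 (-0.54), with a list median of -0.14, and 17.4% of all genes were lower. With the mitochondrial rRNA covariate Myc was at -1.96 and Hif1a at -1.27, and both still passed. Hif1a averaged 250.5 ± 45.1 CPM in TfhA_4e4 and 404.6 ± 62.4 CPM in Tfh2_4e4. In Tfh5_4e4 against Tfh2_4e4 Vhl alone of the 9 passed (-0.44, edgeR adjusted p = 0.0363), with a list median of -0.15 and 3.11% of all genes called. Vhl lost its call with no filter (edgeR adjusted p = 0.0683), without Tfh2_4e4 replicate 3 and Tfh2_2e4 replicate 6 together (0.0788), and in 7 of 12 fits that left out 1 library, namely Tfh2_4e4 replicate 2 or 3 or Tfh5_4e4 replicate 1, 2, 3, 5 or 6 (0.0538 to 0.112).

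**Figure D5:**
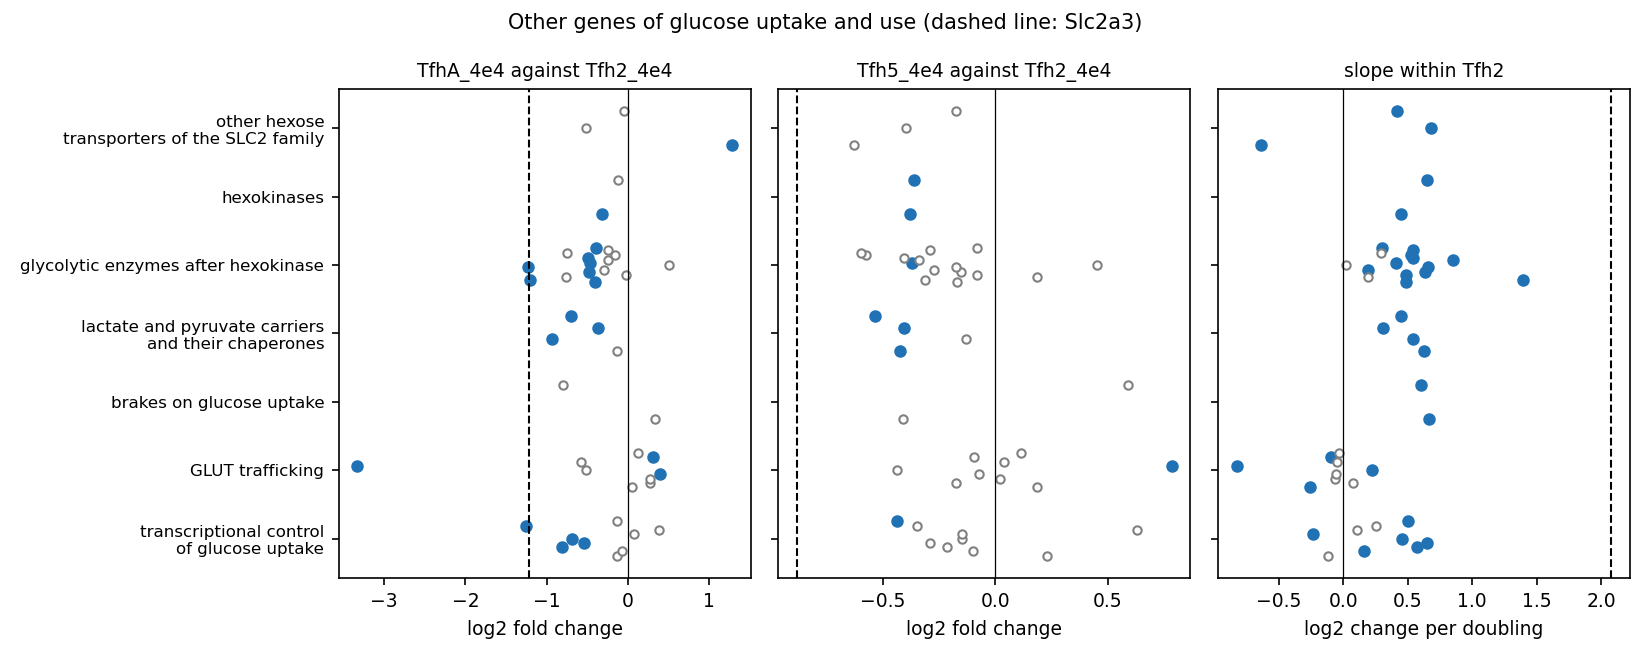
Log2 fold changes of the tested genes of 7 lists (rows) whose mean log2 CPM was at least 1 in TfhA_4e4 against Tfh2_4e4 (left), Tfh5_4e4 against Tfh2_4e4 (middle) and per doubling of the Tfh2 number (right). Each point is a gene, filled where it passed the edgeR test at 0.05, and the dashed line marks Slc2a3 (-1.21, -0.88 and 2.08); along the Tfh2 slope all points shown lie between -0.83 and 1.40, short of that line.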

How the data were processed

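The authors deposited raw counts per gene for each library, whole numbers with numeric gene identifiers. STAR 2.7.2b, featureCounts 1.6.4 and the build mm10 come from the submitters' processing notes, without roles. A deposited table that joins all libraries repeats these counts and was not used. Libraries were grouped by their titles. Counts of all 34 libraries were fitted with edgeR 4.0.16 under R 4.3.3, using TMM normalization, filterByExpr by group (minimum count 10) and two-sided quasi-likelihood tests, adjusted by Benjamini and Hochberg over 11357 genes with a threshold of 0.05. CPM values use the TMM-scaled total, which includes 2 identifiers without a symbol that held 48.3% of all counts. Total counts were 4481509 to 9934245. Shares were compared by exact permutation over libraries. The pair of transporters, taken by name, and the lists were chosen with earlier results of these data known. Named genes are the list members that passed in the slope, TfhA_4e4 against Tfh2_4e4 or Tfh5_4e4 against Tfh2_4e4 and had a mean log2 CPM not under 1, up to 4 per list and comparison, with all detected SLC2 members. Gapdh, Pgk1 and Eno1 were named after their values were seen. Replicate numbers were not taken to pair libraries, since the labels do not say what they pair. Deviations correlated over 0.1 in 15 of 80 same-numbered pairs (highest 0.255). Differently numbered pairs were not compared, so this count cannot decide whether the numbers pair libraries. Alternatives were another normalization, no filter, DESeq2 1.42.0, other covariates, fewer groups and leaving out libraries. On simulated counts for TfhA_4e4 against Tfh2_4e4 edgeR called 61.5% of 200 genes changed by 1 on the log2 scale, with 5 false calls among 128.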

Additional observations from a re-analysis of the deposited data

How the results depend on the processing

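Slc2a3 kept its direction and passed in every alternative run for TfhA_4e4 against Tfh2_4e4, Tfh5_4e4 against Tfh2_4e4, the 3 Tfh2 steps, the range ends and the slope. Its log2 fold change for TfhA_4e4 against Tfh5_4e4 passed with no filter (-0.35, edgeR adjusted p = 0.0270), the replicate block (-0.31, 0.0176), replicate ranges (-0.33, 0.0439), only the compared groups (-0.32, 0.0168) and without Tfh2_4e4 replicate 3 and Tfh2_2e4 replicate 6 (-0.34, 0.0374). It ran from -0.42 to -0.29 when single libraries were left out. Same-numbered libraries of different groups formed 80 pairs, of which 15 had a correlation over 0.1 (mean 0.0494). Differently numbered pairs were not compared, so this cannot decide whether the replicate block is a true pairing. The labels do not say what the replicate numbers pair. With that block 582 genes instead of 353 were called for Tfh5_4e4 against Tfh2_4e4. For Tfh2_6e4 against Tfh2_4e4, where 168 genes were called, the count was 381 with the replicate block, 303 with replicate ranges, 74 with only those groups, 90 without the same 2 libraries, 275 in DESeq2 and 55 to 269 with 1 library left out. The cause was not tested.

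Slc2a1 reversed where it was near 0. TfhA_4e4 against Tfh5_4e4 was 0.78 (edgeR adjusted p = 0.642) with the mitochondrial rRNA covariate and ran from -0.52 to 0.0757 with 1 library left out. Tfh2_4e4 against Tfh2_2e4 ran from -0.0496 to 0.44 and Tfh5_4e4 against Tfh2_6e4 from -0.56 to 0.0412. DESeq2 gave Slc2a1 no adjusted p for Tfh5_4e4 against Tfh2_4e4. In fits of only the compared groups the filter kept Slc2a1 for Tfh5_4e4 against Tfh2_6e4 alone, so both results in which it was called, the slope and Tfh2_6e4 against Tfh2_1e4, have no value from a fit of the Tfh2 libraries alone. With 1 library left out, the change in the share of Slc2a3, opposite in sign to that of Slc2a1, ran from 0.527 to 1.09 points for Tfh2_2e4 against Tfh2_1e4, -0.180 to -0.0421 for Tfh2_6e4 against Tfh2_4e4, 0.675 to 0.981 for Tfh2_4e4 against Tfh2_2e4, 1.22 to 1.78 for Tfh2_6e4 against Tfh2_1e4, -0.898 to -0.467 for Tfh5_4e4 against Tfh2_4e4, -0.982 to -0.571 for TfhA_4e4 against Tfh2_4e4 and -0.279 to 0.166 for TfhA_4e4 against Tfh5_4e4.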

Other observations

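In none of the 18 combinations of group and measure that were checked (6 groups, with Slc2a1 CPM, Slc2a3 CPM and the share) did 1 library stand apart from its group by Dixon's test.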
